A study of Homo sapiens with 4 samples.

Results

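The genes described here are 40 named members of the NF-kB pathway and of the chemokine and cytokine families, followed in 2 human colorectal cancer cell lines after siRNA against BORIS. BORIS is the protein of the gene CTCFL, a germline paralog of the insulator protein CTCF. Members were taken from a list of gene symbols, and each was read from the brightest of the PrimeView probe sets that the platform annotation pairs with that gene alone, by the mean of the 4 arrays. By that rule 37 of the 40 had a value, among 18132 genes in all. CSF2, BIRC3 and SOD2 had no probe set of that kind and were not analysed here.

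The study hybridised total RNA to 4 arrays, 1 for each combination of line and siRNA. The Caco-2 control and the HCT116 control received a negative siRNA, and the Caco-2 and HCT116 BORIS siRNA samples received siRNA against BORIS, in each case with RNA taken after 3 days. The transfection reagent named for the BORIS siRNA was Lipofectamine RNAiMAX, and both lines were grown in high-glucose DMEM with fetal bovine serum. Caco-2 and HCT116 are established epithelial lines, grown here without immune or stromal cells and with no inflammatory stimulus named in the labels, and each group is 1 sample of 1 line. With 1 array in a group, a difference between siRNAs within a line has no replicate check and no test.

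NF-kB is a family of dimeric transcription factors held in the cytoplasm by IkB proteins. Signals from TNF, interleukin-1 and Toll-like receptors pass through adaptor proteins and kinases that mark IkB for destruction, which frees the dimer to enter the nucleus. Its targets include chemokines such as CXCL8, which draw neutrophils to an inflamed epithelium, and its own brakes, NFKBIA and TNFAIP3. In colorectal cancer cells the pathway is known for chemokine secretion and survival signalling.

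Levels are given as deposited log2 values, so a difference of 1 is 2-fold, and a level of one probe set was not set against that of another. Expression in a line meant a value at or above the median of all probe sets, 5.46 to 5.48, on at least 1 of its arrays. Olfactory receptor genes, silent in gut epithelium, set the background: the 95th percentile of their 368 probe sets lay between 4.80 and 5.15. In the order control and then BORIS siRNA, which is kept below, CTCFL stood at 5.07 and 5.09 in Caco-2 and at 5.07 and 4.93 in HCT116, below the array median throughout. The Caco-2 values were above background (5.05 and 4.80), near it on the control array, and showed no decrease. The HCT116 values were below background (5.09 and 5.15), so a decrease could not be read there. A loss of the targeted transcript was therefore not shown in either line. Poly-A control RNAs, added to a sample before labelling, differed between BORIS and control siRNA by -0.05 in Caco-2 and by 0.89 in HCT116 (mean of 12 probe sets), and the part of this in the HCT116 differences was not tested. Of 14 intestinal epithelial markers 13 were above background on some array, with EPCAM between 12.1 and 12.8, while 10 of 19 leukocyte markers, 0 of 10 fibroblast markers and 4 of 10 endothelial markers were. The leukocyte-defining PTPRC, CD3E, CD3D and CD14 were below background on every array, CD79A, CD68, ITGAX and TYROBP were above it on all 4, and LYZ, a leukocyte marker that intestinal epithelium also makes, reached 13.3 in Caco-2. Fewer cells making a transcript and less transcript in each cell cannot be told apart in bulk RNA.

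Promoters of 5 members show the kB sequence to which NF-kB binds, and they are printed because their genes carry the chemokine and feedback results below. Each runs from 250 bases before to 50 bases after the start site, 5′ to 3′ on the strand of the gene, from RefSeq on GRCh38.p14. Capitals mark matches to GGNNTTTCC on either strand, a short spelling of the kB sequence. CXCL8 lies at chr4:73740319-73740618 (plus strand), CXCL1 at chr4:73869143-73869442 (plus strand), CCL20 at chr2:227813592-227813891 (plus strand), NFKBIA at chr14:35404700-35404999 (minus strand) and TNFAIP3 at chr6:137867009-137867308 (plus strand).
CXCL8: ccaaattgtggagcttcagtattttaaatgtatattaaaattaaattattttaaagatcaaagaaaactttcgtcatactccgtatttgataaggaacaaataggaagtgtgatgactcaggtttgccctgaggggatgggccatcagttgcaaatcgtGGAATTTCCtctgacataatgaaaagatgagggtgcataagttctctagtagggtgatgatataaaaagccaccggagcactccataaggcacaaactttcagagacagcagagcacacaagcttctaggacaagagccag
CXCL1: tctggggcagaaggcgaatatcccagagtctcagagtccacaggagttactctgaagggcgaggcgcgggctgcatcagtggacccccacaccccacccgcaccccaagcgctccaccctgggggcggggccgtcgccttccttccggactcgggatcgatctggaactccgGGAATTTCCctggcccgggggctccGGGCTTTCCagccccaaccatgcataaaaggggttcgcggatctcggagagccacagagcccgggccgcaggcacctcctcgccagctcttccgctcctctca
CCL20: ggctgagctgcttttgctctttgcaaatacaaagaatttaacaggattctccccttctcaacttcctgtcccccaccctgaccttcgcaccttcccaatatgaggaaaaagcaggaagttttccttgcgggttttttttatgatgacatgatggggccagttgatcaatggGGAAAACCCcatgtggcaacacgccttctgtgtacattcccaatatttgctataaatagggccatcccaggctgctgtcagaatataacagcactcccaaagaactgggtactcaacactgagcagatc
NFKBIA: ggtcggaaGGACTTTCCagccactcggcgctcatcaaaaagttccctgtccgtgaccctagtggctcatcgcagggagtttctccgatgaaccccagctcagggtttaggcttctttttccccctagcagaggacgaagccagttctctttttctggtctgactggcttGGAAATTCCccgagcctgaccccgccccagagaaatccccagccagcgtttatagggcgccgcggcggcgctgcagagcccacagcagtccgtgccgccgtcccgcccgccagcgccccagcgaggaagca
TNFAIP3: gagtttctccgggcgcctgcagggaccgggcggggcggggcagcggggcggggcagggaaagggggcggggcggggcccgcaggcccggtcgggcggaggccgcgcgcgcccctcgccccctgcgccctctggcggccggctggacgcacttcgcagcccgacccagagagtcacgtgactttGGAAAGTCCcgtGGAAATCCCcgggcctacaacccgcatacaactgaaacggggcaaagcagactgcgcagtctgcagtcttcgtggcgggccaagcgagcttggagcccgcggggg

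A promoter was given for 29 of the 37 measured members, and 20 of these (69%) held GGNNTTTCC, against 7.61% of 27305 genes and 6.26% of 35116 promoters. The first match began 91 bases before the start site in CXCL8, 79 bases in CCL20, 67 bases in TNFAIP3 and 242 bases in NFKBIA. In CXCL1, CXCL2, CXCL3 and CXCL5 the first matched letters were the same as in CXCL8, GGAATTTCC, and began 78, 77, 78 and 90 bases before the start. These genes sit in one run on chromosome 4, where CXCL6, PF4V1, PF4 and PPBP are the other protein-coding genes between CXCL8 and CXCL2. Of the 21 members with a promoter that were expressed in either line, 16 held the match. The AP-1 spelling TGANTCA does not overlap these matches in CXCL8 and was searched on both strands. It was in 4 of the 29 members (13.8%), against 9.37% of genes and 7.71% of promoters. CXCL8 held it 137 bases before the start. The members were listed for their place in the NF-kB pathway, so the shares describe the list, and a match says nothing of binding in these cells.

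In HCT116 most of the expressed members read lower with BORIS siRNA than with control siRNA. Of the 28 expressed there, 23 were lower and 5 higher, which is 82.1% lower against 55.4% of all 10631 expressed genes. Their median difference was -0.47, against -0.05 for all expressed genes. By 1.5-fold or more, 9 members were lower (32.1%, where 9.18% of expressed genes were) and 0 were higher (4.36% of expressed genes). The 9 include CCL20, whose value with BORIS siRNA was below background. With such values raised to background, 8 members (28.6%, against 8.87% of expressed genes) were lower by 1.5-fold or more and TNFAIP3 alone was lower by 2-fold or more (1.31% of expressed genes, or 1.45% as measured), while 0 members were higher by as much (0.583% of expressed genes). Of the 28 members, 6 passed the expression limit through the control array alone (CXCL2, CCL20, REL, BCL3, TNFAIP3 and MAP3K14), and these had to read lower. Among the 22 above the limit on both HCT116 arrays, 17 were lower and 5 higher, with a median of -0.42, and 5 (22.7%) were lower by 1.5-fold or more, against 8.46% of 10079 genes above it on both arrays. The intestinal epithelial markers stood lower in HCT116 too, in 9 of 11 expressed (81.8%, median -0.33, 3 by 1.5-fold or more), while of 5 expressed leukocyte markers 1 was lower; the part of either in the members' values was not tested. The split over all genes depended on scaling: 976 genes were lower and 464 higher by 1.5-fold as deposited, 804 and 603 after quantile normalization, and 786 and 607 after a loess correction. The members' median stayed between -0.47 and -0.35 under every alternative tried.

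In Caco-2 the members were divided. Of 23 expressed there, 14 were lower and 9 higher (60.9% lower, against 49.4% of all 10389 expressed genes), with a median of -0.14 where that of all expressed genes was 0.00. MAP3K14 alone was lower by 1.5-fold or more (1.14% of expressed genes were), and it passed the expression limit on the control array only. CXCL8 and IRAK2 were higher by 1.5-fold or more (2.78% of expressed genes), and 0 members were past 2-fold in either direction, where 0.0481% of expressed genes were lower and 0.404% higher by as much. Among the 20 members above the limit on both arrays, 12 were lower and 8 higher.

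**Figure D1:**
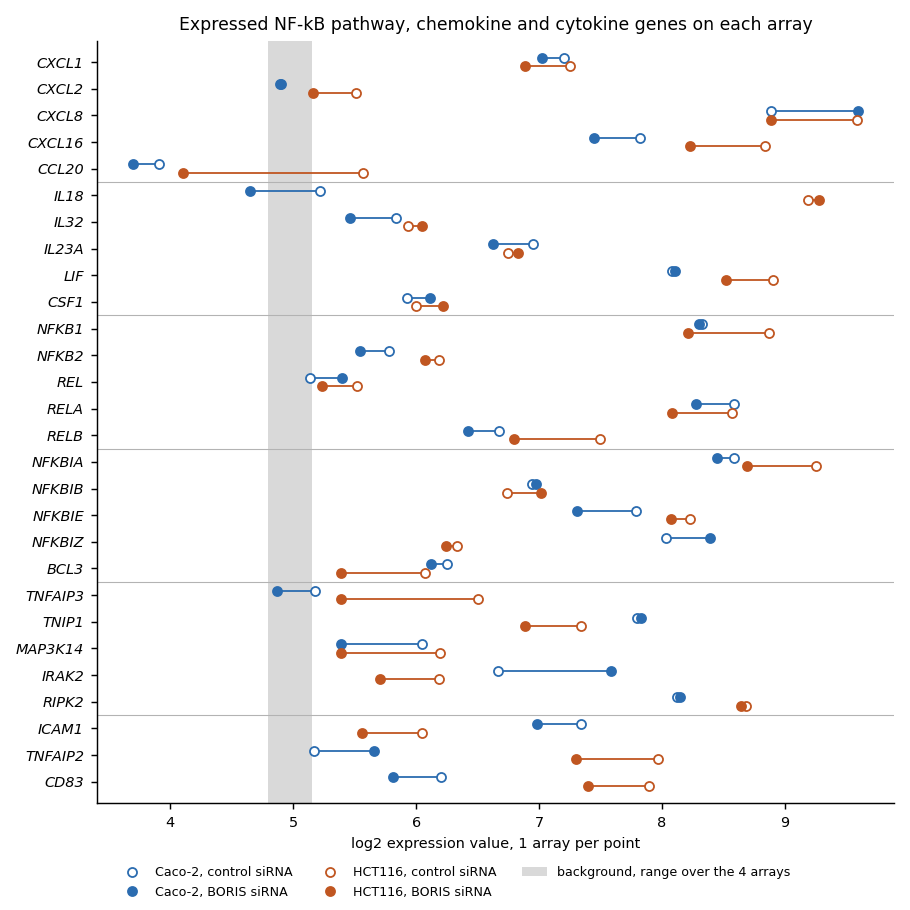
Deposited log2 value of each of the 28 expressed members on each of the 4 arrays, grouped by role, with control siRNA as open and BORIS siRNA as filled points joined within a line and the background range in grey. In HCT116 the BORIS siRNA point lies below the control point for 23 of 28 genes, among them TNFAIP3, at 6.50 and 5.39. Of the 28, 6 genes, TNFAIP3 included, passed the expression limit through the HCT116 control array alone and had to read lower. The HCT116 value of CCL20 with BORIS siRNA is below the grey range.

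Among the chemokines, which recruit leukocytes, all 5 expressed members were lower in HCT116. Of these, CXCL2 and CCL20 passed the expression limit there through the control array alone, so they had to read lower. CXCL8, the neutrophil attractant interleukin-8, read 8.89 with control and 9.60 with BORIS siRNA in Caco-2, and 9.58 and 8.89 in HCT116. Its difference was 0.71 in Caco-2 (1.63-fold higher) and -0.69 in HCT116 (1.62-fold lower). With control siRNA the HCT116 value was the higher one, and with BORIS siRNA the Caco-2 value was. All 3 of its probe sets showed this, from 0.59 to 0.85 in Caco-2 and from -0.79 to -0.67 in HCT116. CCL20, which attracts cells bearing CCR6, stood at 5.57 and 4.10 in HCT116, where the second value was below background. The difference is therefore at least 0.42 downward, and the measured difference was -1.47. In Caco-2 both of its values, 3.91 and 3.70, were below background and give no fold.

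CXCL16, a membrane-bound chemokine that also acts as a scavenger receptor, was lower in both lines. It read 7.82 and 7.45 in Caco-2 and 8.84 and 8.23 in HCT116, differences of -0.38 and -0.61. CXCL1, another neutrophil attractant, read 7.20 and 7.03 in Caco-2 and 7.25 and 6.88 in HCT116, or -0.18 and -0.37. Its second probe set went the other way in Caco-2, with 5.13 and 6.13, and stayed lower in HCT116 (-0.31), so the Caco-2 direction of CXCL1 is not settled. CXCL2 was expressed in HCT116 alone, at 5.51 and 5.16, and its Caco-2 values of 4.89 and 4.90 lay at background. CXCL3, CXCL5, CCL2 and CCL28 were below background on all 4 arrays and give no fold, so of the 5 CXC genes with the same kB match, signal above background was measured for CXCL8, CXCL1 and CXCL2.

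Cytokines and growth factors did not share the lower values of the chemokines in HCT116, where their median difference was 0.09 over 5 genes. LIF, an IL-6 family cytokine, was the lower one, at 8.90 and 8.52 in HCT116 (-0.38) beside 8.09 and 8.11 in Caco-2 (0.02). A second LIF probe set above background differed by only -0.01 in HCT116. IL18, which is made as a precursor in epithelium, read 9.19 and 9.28 in HCT116, and 5.22 and 4.65 in Caco-2. The Caco-2 value with BORIS siRNA was below background, and IL18 was under the expression limit there. CSF1, the macrophage growth factor, read 5.92 and 6.11 in Caco-2 and 6.00 and 6.22 in HCT116, with a Caco-2 difference of 0.19 that became -0.10 with the mean of its probe sets.

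IL32 is a cytokine, and IL23A the p19 subunit of interleukin-23. IL32 read 5.84 and 5.46 in Caco-2 (-0.38), where it passed the expression limit on the control array alone, and 5.94 and 6.05 in HCT116 (0.11). IL23A read 6.95 and 6.62 in Caco-2 (-0.33) and 6.75 and 6.83 in HCT116 (0.08), and both directions turned with the mean of its probe sets (0.01 and -0.14). In HCT116 only 1 of its 4 probe sets was above background, so the turn there rests on probe sets that give no fold. IL1A, IL1B, IL6 and TNF, the classical inflammatory cytokines, were below background on every array.

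The NF-kB subunits were lower with BORIS siRNA in both lines wherever they were expressed, except that the direction of REL in HCT116 turned under an alternative. REL also passed the expression limit there through the control array alone and had to read lower. NFKB1, the precursor of p50, read 8.33 and 8.31 in Caco-2 and 8.87 and 8.21 in HCT116, differences of -0.02 and -0.66. RELB, the partner of p52 in the alternative pathway, read 6.67 and 6.42 in Caco-2 (-0.25) and 7.49 and 6.80 in HCT116 (-0.69). RELA, the p65 subunit, read 8.59 and 8.27 in Caco-2 and 8.57 and 8.08 in HCT116, so its control levels were alike in the lines and both differences, -0.31 and -0.49, were downward. Its 3 probe sets were all lower in each line, from -0.34 to -0.26 in Caco-2 and from -1.19 to -0.35 in HCT116. NFKB2, the precursor of p52, was lower by less, at 5.78 and 5.54 (-0.24) and 6.19 and 6.07 (-0.12). REL, the c-Rel subunit, read 5.52 and 5.24 in HCT116 and was under the expression limit in Caco-2 (5.14 and 5.39).

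The IkB family, which restrains NF-kB or steers it in the nucleus, was mixed in both lines, with medians of -0.13 and -0.15 over 5 genes. NFKBIA, the IkB-alpha brake that NF-kB itself induces, read 8.59 and 8.45 in Caco-2 (-0.14) and 9.25 and 8.70 in HCT116 (-0.56). All 3 of its probe sets were lower in both lines, from -0.62 to -0.52 in HCT116. BCL3, a nuclear IkB protein, read 6.25 and 6.12 in Caco-2 and 6.07 and 5.39 in HCT116 (-0.13 and -0.69). In HCT116 it passed the expression limit through the control array alone and had to read lower. Without the probe sets that can bind related transcripts its HCT116 difference was -0.27, from a probe set below background, which gives no fold. NFKBIE was lower chiefly in Caco-2, at 7.79 and 7.31 (-0.48), and read 8.23 and 8.07 in HCT116 (-0.15). NFKBIB went against the family in HCT116, at 6.74 and 7.01 (0.28, with all 4 probe sets higher) beside 6.95 and 6.97 in Caco-2. NFKBIZ, a nuclear cofactor, read 8.03 and 8.39 in Caco-2 (0.36) and 6.33 and 6.24 in HCT116 (-0.09).

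Among the adaptors, kinases and feedback proteins, the ubiquitin-editing brake TNFAIP3 (A20) was the one lower by over 2-fold in HCT116. It read 6.50 and 5.39 there, a difference of -1.11 or 2.16-fold, and -0.57 by its second probe set. By the first probe set it passed the expression limit there through the control array alone and had to read lower. In Caco-2 it was under the expression limit, at 5.18 and 4.86. TNIP1, which binds A20, read 7.34 and 6.89 in HCT116 (-0.46) and 7.80 and 7.83 in Caco-2 (0.03), and its Caco-2 direction turned under some alternatives. MAP3K14 (NIK), the kinase that starts the alternative pathway, was lower in both lines, at 6.05 and 5.39 in Caco-2 and 6.19 and 5.39 in HCT116. It passed the expression limit through the control array alone in each line, so both directions were set by that limit. The differences of -0.66 and -0.80 came from 1 of its 2 probe sets, and by the mean of both they were -0.42 and -0.44. The second probe set was below background in both lines, so it gives no fold of its own.

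IRAK2, a kinase-like adaptor of interleukin-1 and Toll-like receptors, differed in opposite directions. It read 6.67 and 7.58 in Caco-2 (0.92, or 1.89-fold higher) and 6.18 and 5.70 in HCT116 (-0.48). The second IRAK2 probe set ran against the first in both lines, with -0.35 and 0.20, so neither direction is shared by the probe sets of this gene. RIPK2, the kinase below the NOD receptors, read 8.12 and 8.15 in Caco-2 and 8.68 and 8.65 in HCT116. TRAF1 was below background on all arrays.

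The effector targets ICAM1 and CD83 were lower in both lines. ICAM1, the leukocyte adhesion molecule, read 7.34 and 6.99 in Caco-2 (-0.35) and 6.05 and 5.56 in HCT116 (-0.49), and all 3 of its probe sets were lower in each line. CD83, a membrane protein of activated antigen-presenting cells, read 6.20 and 5.81 in Caco-2 (-0.40) and 7.89 and 7.40 in HCT116 (-0.49). TNFAIP2, a TNF-induced cytoplasmic protein, read 5.17 and 5.66 in Caco-2 (0.49) and 7.97 and 7.30 in HCT116 (-0.67). Its other bright probe set was lower in both, at -0.31 and -0.08.

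**Figure D2:**
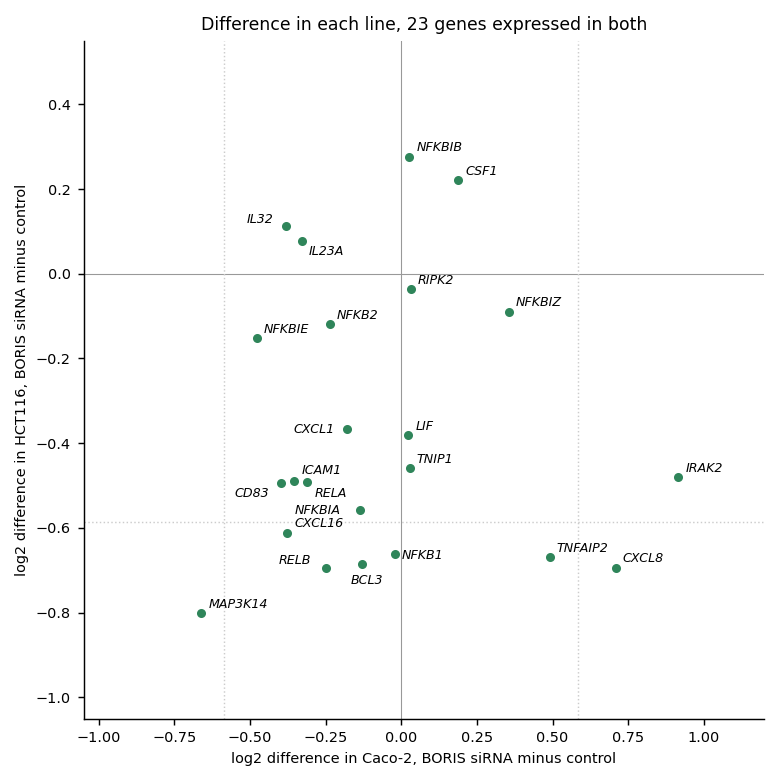
Log2 difference between BORIS and control siRNA in Caco-2 (x axis) and HCT116 (y axis) for the 23 members expressed in both lines, with dotted lines at 1.5-fold. CXCL8, IRAK2 and TNFAIP2 lie at the lower right, higher in Caco-2 and lower in HCT116, and MAP3K14 is past 1.5-fold downward in both. The expression limit set the MAP3K14 direction in both lines (control array alone) and the TNFAIP2 direction in Caco-2 (BORIS siRNA array alone).

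Of the 23 members expressed in both lines, 12 were lower in both, 2 (CSF1 and NFKBIB) higher in both and 9 opposite. The matching shares of all genes are not given here. CSF1 and NFKBIB turned sign in Caco-2 under an alternative. So did CXCL1 among the lower genes and IL23A, LIF, TNIP1 and RIPK2 among the opposite ones. For TNIP1, 7 of 8 probe sets were lower in Caco-2. Among the lower genes, MAP3K14 in both lines and BCL3 in HCT116 passed the expression limit through the control array alone. The difference was more negative in HCT116 than in Caco-2 for 17 of 23 (73.9%, against 56.0% of 9855 genes expressed in both), and the median gap was -0.19 where that of all these genes was -0.06. Members opposite in sign and past 1.5-fold in at least 1 line numbered 3 (13.0%, against 5.69% of genes), namely CXCL8, IRAK2 and TNFAIP2. TNFAIP2 passed the Caco-2 limit through the BORIS siRNA array alone, so its direction there was set by that limit. Among the 19 members above the limit on all 4 arrays the count was 2 (10.5%, against 5.14% of 9317 genes). With 1 array for each siRNA in each line, a difference in response between the lines could not be tested.

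**Figure D3:**
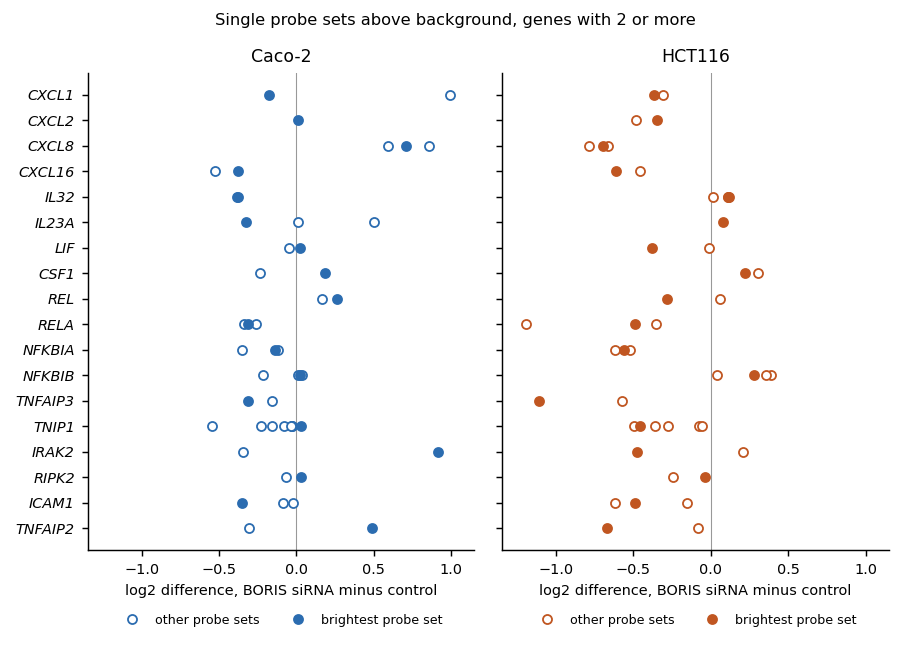
Log2 difference between BORIS and control siRNA for every probe set above background of the members with at least 2 such probe sets, with Caco-2 and HCT116 in separate panels and the brightest probe set filled. The probe sets of CXCL8, RELA, NFKBIA and ICAM1 lie on one side of 0 within a line, over a range that for RELA in HCT116 runs from -1.19 to -0.35, while those of IRAK2 in both lines and of CXCL1, IL23A and TNFAIP2 in Caco-2 spread across 0.

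The agreement of probe sets within a gene differed in extent between the lines. In HCT116, 17 expressed members had at least 2 probe sets above background, and in 15 of them all of these pointed one way, downward in 12 and upward in 3. In Caco-2, 15 members had as many, and in 6 all pointed one way, downward in 5 and upward in 1. The matching shares of all genes are not given, so these counts cannot be called particular to the members. Differences were wider in HCT116 over all expressed genes too, with 1440 past 1.5-fold against 407 in Caco-2. The part of this in the agreement was not tested. Probe sets of a gene read the same RNA sample, so they show how the array measured it and are not replicates of the siRNA.

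The rest of the pathway, in 6 lists of 133 further genes, differed by less than the members. In HCT116 the median over 73 expressed genes was -0.10, with 52 lower (71.2%, against 55.4% of all expressed genes). Of the 73, 3 were lower and 2 higher by 1.5-fold or more, where 9.18% and 4.36% of all expressed genes were. In Caco-2 it was -0.04 over 78 genes, with 43 lower (55.1%, against 49.4%). The receptors were lower in 8 of 9 genes in Caco-2 (median -0.11) and in 7 of 7 in HCT116 (median -0.24). TNFRSF11A, at 5.55 and 5.16 in Caco-2, passed the limit there through the control array alone and had to read lower. How many other genes of the 6 lists passed on 1 array alone is not given here. Of these receptors, 1 in Caco-2 and 0 in HCT116 were lower by 1.5-fold or more, where 1.14% and 9.18% of all expressed genes were. Among them TNFRSF1A, the main TNF receptor, read 8.77 and 8.41 in HCT116 (-0.36) and 8.83 and 8.68 in Caco-2 (-0.15), and IL1R1, the signalling receptor for interleukin-1, differed by -0.55 in HCT116. IL1RN, the natural antagonist of that receptor, differed by -0.67 in Caco-2, at 8.21 and 7.54.

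Among other adaptors and kinases the median was 0.08 in Caco-2 and -0.21 in HCT116, over 20 and 19 genes. TRAF5, an adaptor of TNF-family receptors, read 6.70 and 5.60 in HCT116 (-1.10), and CARD10, a scaffold that joins receptors to BCL10, read 7.96 and 7.11 (-0.85). BCL10 itself differed by -0.55 there and TAB2, which links ubiquitin chains to the kinase TAK1, by -0.63. In Caco-2 the widest differences were upward, with TRAF3 at 0.47 and BIRC2, a ubiquitin ligase of TNF receptor complexes, at 0.40. Ubiquitin editing proteins and inhibitors had medians of -0.15 and -0.10, with TAX1BP1, an A20 partner, higher in both lines (0.37 in Caco-2 and 0.60 in HCT116) and the linear-chain deubiquitinase OTULIN lower in HCT116 (-0.57).

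Further targets of NF-kB had medians of 0.04 and -0.12 over 18 genes in each line. PLAU, the urokinase protease, was higher in Caco-2 (0.57) and lower in HCT116 (-0.51), as was the transcription factor KLF6 (0.45 and -0.47), the same order as CXCL8. NINJ1 was lower in both (-0.57 and -0.54). Other chemokines and cytokines had medians of -0.09 over 9 genes in Caco-2 and 0.21 over 8 in HCT116, each of which turned sign under 1 alternative. Among them TNFSF10, the death ligand TRAIL, was at 0.63 in Caco-2 and IL15 at 0.56 in HCT116. TNFSF10 passed the Caco-2 expression limit through the BORIS siRNA array alone, so it had to read higher. Of the chemokine and cytokine receptors 4 were expressed in each line, and the signs of their medians (-0.05 and -0.03) turned under alternatives. With the mean of all probe sets the differences were smaller for TRAF5 (-0.66), CARD10 (-0.35), KLF6 (-0.12) and IL15 (0.16) in HCT116 and for TRAF3 (0.21) in Caco-2. CCR6, the receptor for CCL20, read 5.55 and 4.68 in Caco-2, at least 0.75 lower against background. It passed the expression limit there through the control array alone and had to read lower. With the mean of all probe sets its difference was -0.51.

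**Figure D4:**
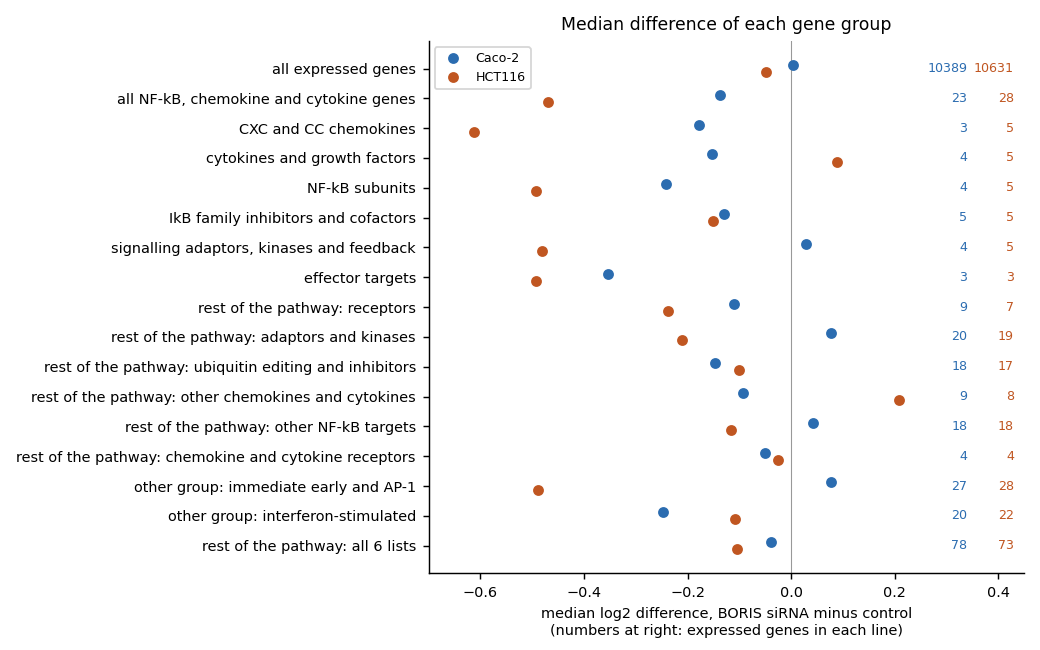
Median log2 difference between BORIS and control siRNA of the expressed genes of each group in Caco-2 and HCT116, with the number of expressed genes at right. In HCT116 the chemokines (-0.61), effector targets (-0.49), NF-kB subunits (-0.49) and signalling genes (-0.48) lie lowest beside the immediate early genes (-0.49). CXCL2, CCL20, REL, TNFAIP3 and MAP3K14 among these genes passed the expression limit there through the control array alone and had to read lower.

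By role, the members' medians in HCT116 were -0.61 for chemokines, -0.49 for subunits and -0.48 for adaptors and feedback. They were -0.49 for effectors, -0.15 for the IkB family and 0.09 for cytokines. None of these turned sign under the alternatives, but the chemokine median was -0.35 with no filter and -0.42 with values raised to background. CXCL2, CCL20, REL, BCL3, TNFAIP3 and MAP3K14 had to read lower there, since each passed the expression limit through the control array alone. In Caco-2 the chemokine median of -0.18 became 0.41 and the cytokine median of -0.15 became 0.08 with the mean of all probe sets, and the adaptor median of 0.03 turned under 4 alternatives. Lower values in HCT116 were also seen in a list of AP-1 and other immediate early genes, where 27 of the 28 expressed there were lower, with a median of -0.49, beside 0.08 over 27 genes in Caco-2. Without the 3 genes that the pathway lists also hold (JUNB, IER3 and KLF6), 24 of 25 were lower in HCT116, with a median of -0.51. Interferon-stimulated genes had medians of -0.25 over 20 genes in Caco-2 and -0.11 over 22 in HCT116.

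An effect of BORIS siRNA shared by the lines was tested with limma on 11165 genes, with cell line as a block and 1 residual degree of freedom. At a Benjamini-Hochberg adjusted p under 0.05, 0 of the 28 members and 0% of all genes passed. At an unadjusted limma p under 0.05 the counts were 4 of 28 members (MAP3K14, CXCL16, TNFAIP3 and CD83) and 670 of 11165 genes. MAP3K14 had a shared difference of -0.73 (SE 0.21), and its limma adjusted p was 0.769, with the lower value in 2 of 2 lines. It passed the expression limit through the control array alone in both lines, so both directions were set by that limit. TNFAIP3 passed through the control array alone in HCT116. After quantile normalization 57 genes passed as higher and 49 as lower, and after a loess correction 85 and 53 did, with 0 members in either case. On simulated data the test recovered 12.4% of 2-fold and 94.8% of 4-fold shared changes, and the members' shared differences were below 2-fold.

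**Figure D5:**
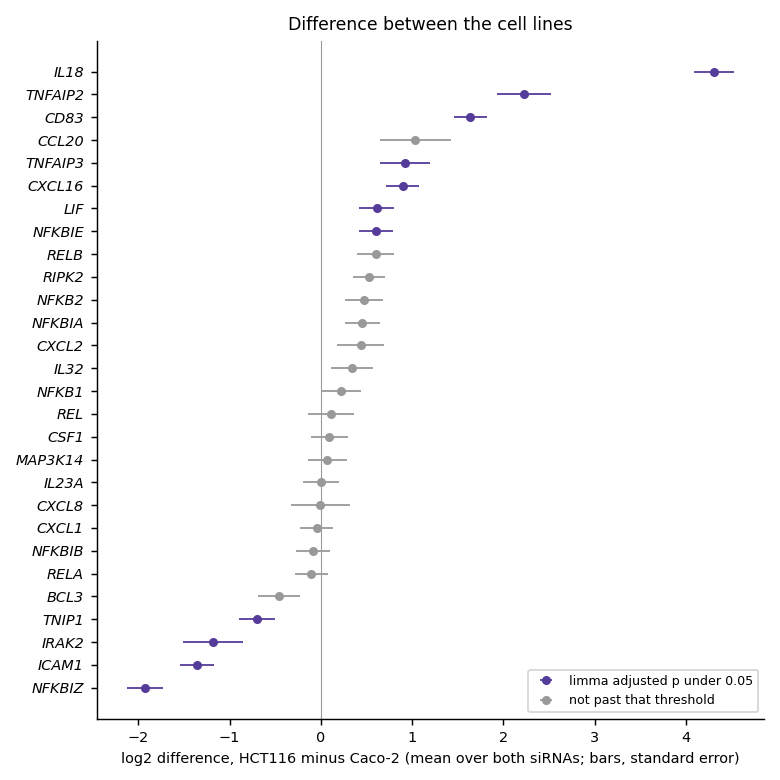
Log2 difference between HCT116 and Caco-2 for the 28 expressed members, as the mean over both siRNAs (points) with its standard error from limma (bars), coloured by whether the limma adjusted p was under 0.05. The Caco-2 values of CCL20 were below background. IL18 (4.31), TNFAIP2 (2.22) and CD83 (1.64) lie highest, and NFKBIZ (-1.93) and ICAM1 (-1.36) lowest.

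IL18, TNFAIP2 and CD83 were higher in HCT116 than in Caco-2, and NFKBIZ and ICAM1 were lower. Between HCT116 and Caco-2, with siRNA as a block, 11 of 28 members passed the limma test (39.3%, where 39.2% of genes did). The arrays of a line are different treatments, so the spread behind these p-values is that between the siRNA pairs and not between cultures. Higher in HCT116 were 7 members (25.0%, where 19.4% of genes were): IL18, TNFAIP2, CD83, TNFAIP3, CXCL16, LIF and NFKBIE. IL18 was higher by 4.31 (SE 0.22, 19.8-fold, limma adjusted p = 3.82e-05), and by 4.23 with the Caco-2 values below background raised to it. TNFAIP2 was higher by 2.22 (SE 0.29, limma adjusted p = 0.0019), but by 0.77 with the mean of all its probe sets (limma adjusted p = 0.0127), and CD83 by 1.64 (SE 0.18, limma adjusted p = 0.000947).

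Lower in HCT116 were 4 members (14.3%, where 19.8% of genes were). NFKBIZ differed by -1.93 (SE 0.20, limma adjusted p = 0.000658) and ICAM1 by -1.36 (SE 0.19, limma adjusted p = 0.00233), while IRAK2 and TNIP1 stood at -1.18 and -0.70. For IRAK2 the mean of both probe sets gave -0.57, and the second probe set alone 0.04. TNFAIP3, LIF, NFKBIE, TNIP1 and IRAK2, 5 of the 11, each lost the call under at least 1 alternative, all of them with no filter on dim probe sets, where the limma adjusted p was between 0.057 for TNFAIP3 and 0.0798 for NFKBIE, and the highest was 0.105, for TNFAIP3 after loess. On the control arrays alone 20 of 28 members were higher in HCT116 (71.4%, against 50.9% of genes), and on the BORIS siRNA arrays 17 were (60.7%, against 5582 of 11165 genes). CXCL2, CCL20, IL18, REL and TNFAIP3 passed the expression limit through HCT116 alone, which favours higher values there. Among the 23 members expressed in both lines, 15 were higher in HCT116 on the control arrays (65.2%, against 50.1% of genes) and 13 on the BORIS siRNA arrays (56.5%, against 48.7%). The distance between lines in TNFAIP3 was 1.32 with control and 0.53 with BORIS siRNA, and in TNFAIP2 2.80 and 1.64. For IRAK2 it went from -0.48 to -1.88 by its brightest probe set, and for IL18 from 3.98 to 4.63. The Caco-2 value of IL18 with BORIS siRNA was below background, so 4.63 is not an exact distance.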

How the data were processed

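Total RNA from 4 samples was labelled as biotin cRNA and hybridised to PrimeView arrays, per the labels' protocols. The authors deposited log2 values per probe set, a unit read from their range of 2.13 to 14.17. For background correction, normalization and summarisation, the method is not given in the sources used. Of 49395 probe sets, 44988 are paired with 1 gene symbol, 1832 with several and 2473 with none, besides 102 control probe sets. Symbols were checked by Entrez ID in RefSeq, which changed 0.

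Differences are BORIS siRNA minus control siRNA on 1 array each, with no test. A value below background gives a lower bound. The shared effect and the line difference were fitted with limma 3.58.1 in R 4.3.3 (lmFit, eBayes with trend) over 11165 genes, at a Benjamini-Hochberg adjusted p of 0.05, and checked on 5 simulated sets, where 6.94% of calls of the shared effect and 7.8% of calls of the line difference were false. All members were to be named, and from each pathway list up to 4 expressed genes with the widest difference in each line. The Results name only a part of these pathway genes. Among those left out, CCR10 differed by 0.61 and GADD45B by -0.51 in HCT116 (-0.22 for GADD45B with the mean of probe sets). TLR4 differed by 0.27 in Caco-2 (-0.15 with that mean). Members and lists were chosen with earlier results of these data known.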

Additional observations from a re-analysis of the deposited data

Results flagged for a closer look

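CXCL8, IRAK2 and TNFAIP2 differed in opposite directions in the 2 lines, past 1.5-fold in at least 1 of them. The difference in HCT116 minus that in Caco-2 was -1.40 for CXCL8, -1.40 for IRAK2 and -1.16 for TNFAIP2. In Caco-2, TNFAIP2 passed the expression limit through the BORIS siRNA array alone, so its upward direction there was set by that limit. The difference between the lines was not tested, since each group holds 1 array. CXCL8 showed it with all 3 probe sets, and the other genes with their brightest probe set only.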

How the results depend on the processing

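No fit with a replicate block was made, because the labels give no replicate numbers, and no replicate could be left out. The tests took cell line or siRNA as the block instead. Alternatives were the filter on dim probe sets, the choice of probe set, the scaling, the treatment of low values and the variance trend. The HCT116 median of -0.47 was -0.35 with no filter, -0.38 with the mean of all probe sets, -0.39 after loess and -0.38 with 16 added on the linear scale. Members lower by 1.5-fold in Caco-2 numbered 2 with no filter and 0 with the mean of probe sets or 16 added, against 1, and those higher numbered 1 with the mean, against 2. Members past the line test with no filter were 4 higher and 2 lower in HCT116. Those higher numbered 12 with the mean and 11 after quantile normalization, against 7. The other 72 values of group results, which cover the members as a whole, kept their direction, with counts within 1.5 times those given. Of these group results 0 reversed. Members lower by 1.5-fold in HCT116, 9 of 28 as deposited, numbered 6 of 24 with the mean and 6 of 28 after loess. They numbered 6 of 23 without the probe sets that can bind related transcripts. By role, the Caco-2 medians of chemokines, cytokines and adaptors turned sign under at least 1 alternative. Among expressed members, 7 in Caco-2 (CXCL1, IL23A, LIF, CSF1, NFKBIB, TNIP1 and RIPK2) and 3 in HCT116 (IL23A, REL and RIPK2) turned sign under some alternative. The number of arrays and the signal over background limit the precision.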
